A study of Mus musculus with 4 samples.

Results

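The 10 genes described here encode neuronal cell adhesion proteins: the contactins Cntn3, Cntn4, Cntn5 and Cntn6, the contactin-associated (Caspr) proteins Cntnap2, Cntnap4, Cntnap5a, Cntnap5b and Cntnap5c, and the L1 family protein Chl1. They were taken by name from a list, and all 10 were found by Ensembl identifier among the 55422 gene identifiers of the count matrices. The list is recorded as chosen by measured values of these data, without saying which, so levels and genotype differences are given as a description, and a p-value belongs to a fit across all genes and is not independent evidence about the list.

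The counts come from single nuclei of mouse hippocampus in 2 Control libraries, of genotype Kat6a-f/f, and 2 Kat6a-cKO libraries, which carry NEX-cre together with Kat6a-f/f. All 4 libraries therefore have the floxed Kat6a alleles, and the groups differ in the Cre driver. NEX-cre places Cre at the Neurod6 (Nex) gene, which is active in excitatory neurons of the forebrain and not in most interneurons or glia, and Kat6a encodes a histone acetyltransferase. Age, sex and the number of animals in a library are not given in the sources used here, and nothing there says that the replicates came from separate animals, so p-values measure the spread between libraries, which may be technical.

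Contactins are immunoglobulin-domain proteins held to the outer membrane by a lipid anchor, and Caspr proteins are neurexin-like proteins that cross the membrane once. Several of them work in pairs at axons and synapses: Cntnap2 with the contactin Cntn2 gathers potassium channels beside the node of Ranvier, and Cntnap4 has been tied to transmitter release by interneurons. Contactins of this group bind the receptor phosphatase Ptprg, Cntn4 binds amyloid precursor protein, Chl1 guides migrating neurons and growing axons, and little is known of the Cntnap5 proteins, which mice encode in several gene copies.

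Cntn4 and Cntn6 had the most alike levels over the classes described below of any contactin pair, so the stretch before their RefSeq start sites is shown (GRCm38.p6, plus strand, 250 bases each). Capitals mark CANNTG, the E-box bound by basic helix-loop-helix factors, a family that includes Neurod6. The motif reads the same on both strands, and CAGCTG is one of its forms.
Cntn4, chr6:106118515-106118764: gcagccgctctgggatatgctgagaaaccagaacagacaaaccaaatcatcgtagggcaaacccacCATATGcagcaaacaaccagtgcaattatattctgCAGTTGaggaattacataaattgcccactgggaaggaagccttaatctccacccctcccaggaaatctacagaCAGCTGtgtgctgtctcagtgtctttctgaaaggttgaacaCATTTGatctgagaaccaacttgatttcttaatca
Cntn6, chr6:104492794-104493043: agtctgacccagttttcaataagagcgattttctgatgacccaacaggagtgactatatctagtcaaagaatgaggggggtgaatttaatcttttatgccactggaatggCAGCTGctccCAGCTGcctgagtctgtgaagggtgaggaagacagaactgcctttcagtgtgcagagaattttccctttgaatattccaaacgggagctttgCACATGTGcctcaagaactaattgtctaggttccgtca
Each of these windows held 4 CANNTG matches. Cntn6 had 2 CAGCTG matches, the nearer 124 bases before the start, where 1.26% of 32851 RefSeq promoter windows had at least 2. Cntn4 had 1, which lay 70 bases before the start, and 4271 of all windows held at least 1. CANNTG itself was in 66.2% of windows, and TATAAA, in 12.4% of them, was in neither. RefSeq has another start for Cntn4, whose window (chr6:106118692-106118941) overlaps the one shown and held 1 CANNTG match and 0 CAGCTG matches, so the Cntn4 matches depend on the start taken. A match is a string of letters and not evidence of binding. Both RefSeq starts of Cntn4 lie inside the longer GENCODE gene, and windows were at hand for 7 of the 10 genes.

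In GENCODE M21 (GRCm38), all 10 are protein-coding genes with long spans. The shortest was Chl1 (chr6:103510586-103750211, plus strand) with 240 kb, and the longest was Cntnap2 (chr6:45059357-47304213, plus strand) with 2240 kb. Cntn3 (chr6:102162655-102573101, minus strand), Cntn6 (chr6:104492790-104863406, plus strand) and Cntn4 (chr6:105677660-106699310, plus strand) are neighbours of Chl1. These 5 genes share chromosome 6 with Neurod6, the site of the Cre driver: Cntnap2 lies 8.37 Mb from it and the others between 46.5 and 50.0 Mb. Their linkage to the driver was not tested. The others are Cntn5 (chr9:9660891-10904775, minus strand), Cntnap4 (chr8:112570043-112882717, plus strand), Cntnap5a (chr1:115684756-116587323, plus strand), Cntnap5b (chr1:99772765-100485942, plus strand) and Cntnap5c (chr17:57769570-58410355, plus strand). Nuclear RNA is rich in introns, and whether counting used strand is not given in the sources used here. Reads of a member therefore cannot be told apart from those of small genes within its span, of which Cntnap2 has 28.

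The libraries held 171323466 to 186897245 UMIs (unique molecular identifiers, each 1 captured RNA molecule), and 7911 to 8442 barcodes with at least 5000 UMIs each. After doublets were left out, 7613 to 8144 nuclei stayed per library, and any pair of libraries shared 15 to 20 barcodes, at most 0.253% of the smaller. Nuclei were clustered without the members and other listed genes, and clusters were placed in 12 classes by marker genes, so each name stands for nuclei like that type (CA1-like and so on). Clusters left unnamed held 12.8% and 11.3% of nuclei in the Control libraries and 17.4% and 14.3% in Kat6a-cKO, and statements on the highest class are about the 12 named ones. Every class raised at least 6 of its markers at least 2-fold over the mean of the other named classes. Clusters were named by these same markers, so that outcome was largely set by the naming. In CA2 nuclei 6 of 8 markers were raised, and Pcp4 was lower, at 27.3 CPM against 54.8 CPM in the other classes. Dentate granule nuclei were the most numerous, with 2697 to 3397 in a library, and Cajal-Retzius nuclei the fewest, with 22 to 34. Levels are in CPM, the counts-per-million scale, over all UMIs of a class in a library. Kat6a itself stood at 79.4 and 80.6 CPM over all nuclei of the Control libraries and at 73.9 and 74.1 CPM in Kat6a-cKO. Its log2 fold change lay between -0.24 and 0.21 in every class, none past the threshold, and the position of the deleted part is not given in the sources used here, so this does not check the labels. Neurod6 was lower in Kat6a-cKO dentate granule nuclei by -0.88 ± 0.15 (log2 fold change ± SE, edgeR adjusted p = 0.0365). In the other classes fitted Neurod6 did not pass. Its log2 fold change there lay between -1.06 in OPC (oligodendrocyte precursors) and -0.17 in mossy nuclei, apart from 0.06 in oligodendrocytes.

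The single highest class differed between the contactins, apart from Cntn4 and Cntn6. Mossy and subicular or deep-layer nuclei led for both Cntn3 and Cntn4, in opposite order. Cntn3 was highest in mossy nuclei, the excitatory cells of the dentate hilus, at 697 ± 84.1 CPM (mean ± SD, n = 2 Control libraries). The unnamed nuclei, pooled, were at 783 ± 44.5 CPM. Subicular or deep-layer nuclei followed at 575 ± 63.1 CPM, and CA3 (448 ± 3.12 CPM) and CA1 (441 ± 17.7 CPM) pyramidal nuclei did not differ beyond their libraries' spread. It was lowest in astrocytes, at 13.3 ± 8.31 CPM. Oligodendrocytes, at 346 and 271 CPM, overlapped with interneurons at 380 and 336 CPM. The oligodendrocyte class held 48 to 158 nuclei in a library, against 627 to 923 at a minimum of 2500 UMIs. Its levels thus describe a small part of these nuclei. OPC, the oligodendrocyte precursors, held 136 and 121 CPM, above CA2 pyramidal (64.8 and 44.4 CPM) and immature dentate nuclei (57.0 and 47.7 CPM). Free RNA, read from barcodes with too few UMIs to be nuclei, held 196 to 247 CPM of Cntn3, a range that dentate granule nuclei, at 209 and 214 CPM, did not exceed.

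Cntn4 and Cntn6 had the same 4 leading classes. Cntn4 stood at 2940 ± 615 CPM in subicular or deep-layer nuclei, 1940 ± 137 CPM in mossy nuclei, 1200 ± 207 CPM in OPC and 564 ± 98.6 CPM in interneurons. Cntn6 stood at 1260 ± 223 CPM in subicular or deep-layer nuclei, 492 ± 5.35 CPM in OPC, 415 ± 61.9 CPM in mossy nuclei and 305 ± 14.0 CPM in interneurons. The genes parted in CA1, where Cntn4 was at 447 ± 12.4 CPM and Cntn6 at 37.5 ± 1.28 CPM. Neither exceeded 77.9 CPM in a Control library of dentate granule, CA2 or CA3 nuclei, while free RNA held 173 to 257 CPM of Cntn4 and 114 to 165 CPM of Cntn6.

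Cntn5 had another order of classes. It was highest in interneurons, at 1520 CPM in both Control libraries, then in Cajal-Retzius nuclei (1440 and 993 CPM), dentate granule nuclei (916 and 980 CPM) and immature dentate nuclei (817 and 918 CPM). The dentate pair overlapped. In CA3 nuclei Cntn5 was at 16.9 and 16.7 CPM, its lowest class and 56.4-fold below dentate granule nuclei. The Control libraries lay far apart in mossy nuclei, at 237 and 563 CPM.

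Of the Caspr genes, Cntnap2 was at the highest level. Cajal-Retzius nuclei held 10600 and 9870 CPM, CA1 nuclei 7680 and 7540 CPM, CA3 nuclei 6740 and 5840 CPM and interneurons 4830 and 4270 CPM, and each of these classes stood above the next in both Control libraries. Dentate granule nuclei were at 276 and 321 CPM, below the 1470 to 1720 CPM of free RNA. CA2, subicular and mossy nuclei formed a middle group between 1130 and 1570 CPM that did not separate beyond the libraries' spread. On a scale of CPM per kb of gene span, which sets genes of unlike length side by side, Cntnap2 in Cajal-Retzius nuclei was at 4.54, Cntn6 in subicular or deep-layer nuclei at 3.40, and Cntn5, at its highest, at 1.22 in interneurons.

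Cntnap4 was highest in the subicular or deep-layer class (816 and 840 CPM) and in interneurons (630 and 617 CPM). Its mean in interneurons was 5.42-fold above that in Cajal-Retzius nuclei, the next class. CA1 nuclei held 6.36 and 4.35 CPM and dentate granule nuclei 4.12 and 3.09 CPM. These values are far below the 40.1 to 58.3 CPM of Cntnap4 in free RNA.

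Of the 3 Cntnap5 genes, Cntnap5a and Cntnap5b led in the same classes and Cntnap5c in others. Cntnap5a led in immature dentate nuclei (2580 and 2470 CPM) and dentate granule nuclei (1260 and 1100 CPM), then interneurons (770 and 738 CPM), and was at 42.7 and 33.8 CPM in CA3. Cntnap5b followed the same first order at lower CPM, with 818 and 1100 CPM in immature dentate and 450 and 536 CPM in dentate granule nuclei, but was higher in CA2 (225 CPM in both) than in CA1 (165 and 115 CPM). Cntnap5c was highest in 2 of the 3 pyramidal classes: CA3 nuclei held 1410 and 1420 CPM, CA1 nuclei 945 and 883 CPM, interneurons 849 and 828 CPM, CA2 nuclei 262 and 338 CPM, and dentate granule nuclei 25.2 and 21.3 CPM. Interneurons and Cajal-Retzius nuclei were the classes in which all 3 were at 196 CPM or more in both Control libraries. That cut is itself the lowest of these values, and the lowest in CA1 nuclei was 115 CPM. Chl1 was the most even member, from 437 ± 88.2 CPM in immature dentate nuclei and 370 ± 15.1 CPM in interneurons to 31.8 ± 2.30 CPM in oligodendrocytes, a range of 13.7-fold.

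**Figure D1:**
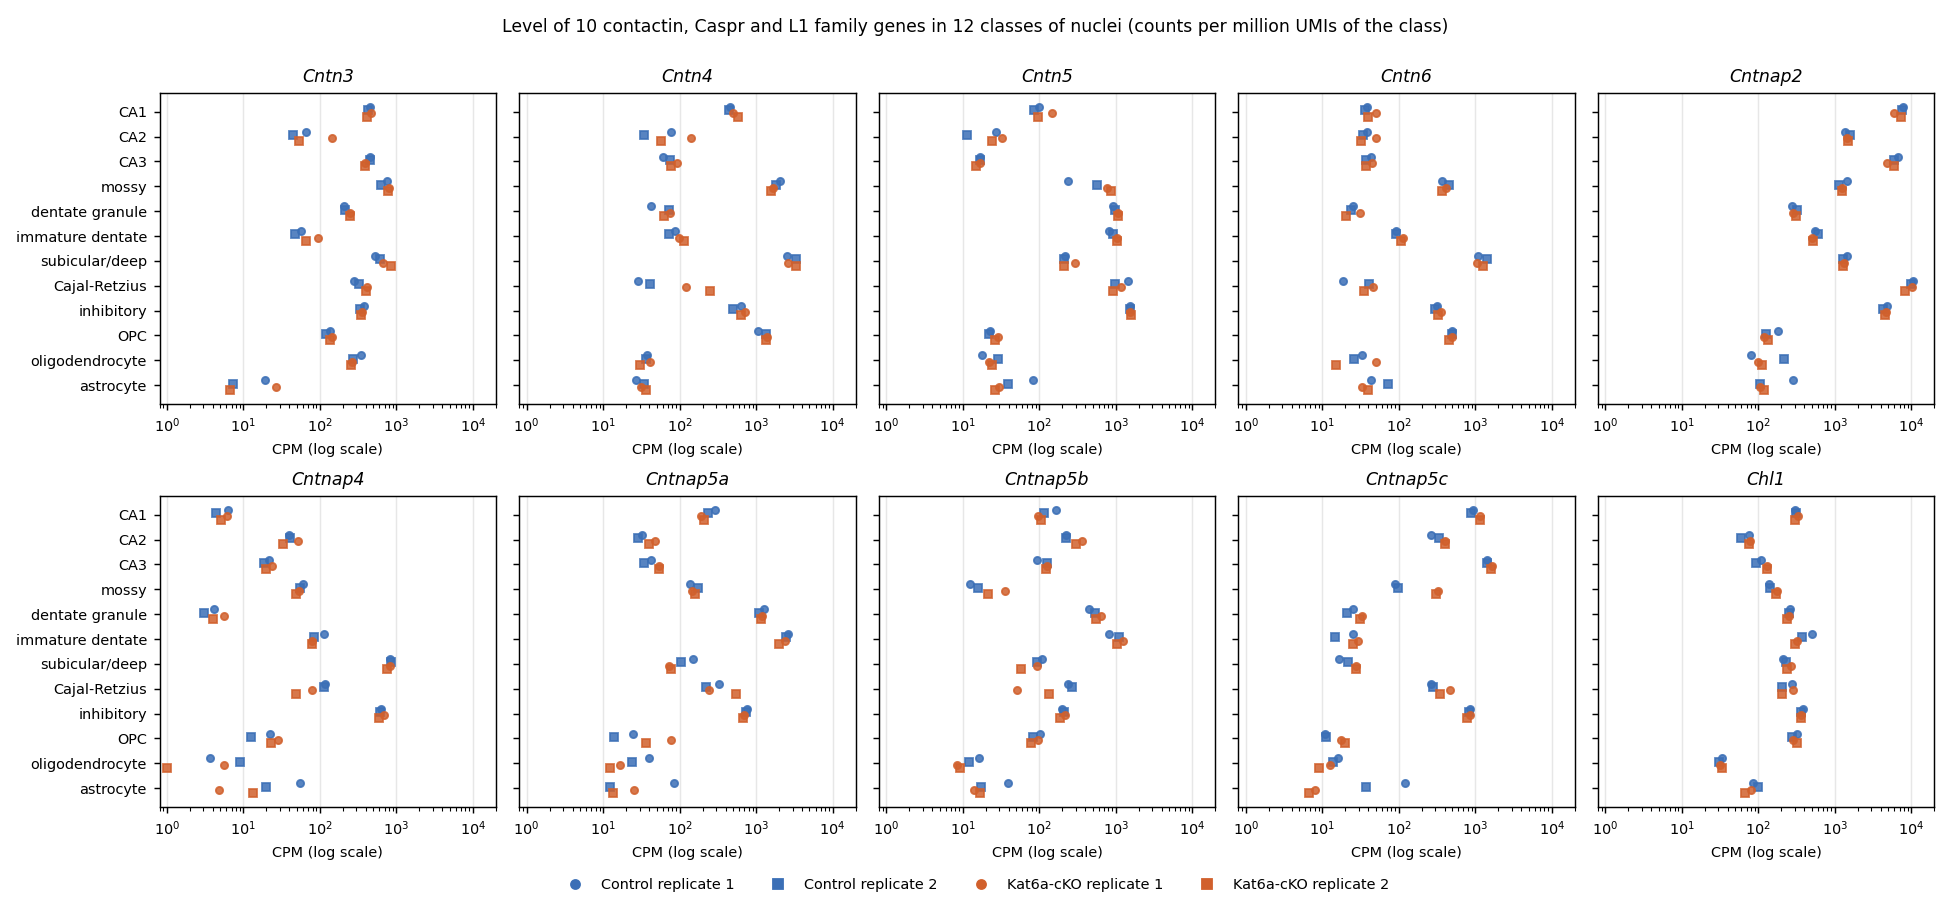
Level of each gene in 12 classes of nuclei, in CPM (counts-per-million) of the UMIs of the class on a log scale; each point is 1 library (blue, Control; orange, Kat6a-cKO; circle, replicate 1; square, replicate 2), and a value of 0 (Cntnap4 in oligodendrocytes of Kat6a-cKO replicate 2) is drawn at 1. Differences between classes, such as Cntnap5c at 1410 CPM in CA3 against 25.2 CPM in dentate granule nuclei of Control replicate 1, are much wider than those between the colours.

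Over the 12 classes (means of the Control libraries on a log2(CPM + 1) scale), the members closest to each other were Cntn4 with Cntn6 and Cntn5 with Cntnap5a, each with a Pearson correlation of 0.888, and Cntnap2 with Cntnap5c at 0.839. The least alike were Cntn6 and Cntnap5c at -0.290. The classes share libraries and differ in depth, so these are descriptions over 12 points. Among all genes, those most like each member were Cemip for Cntn5 (0.922), Chrm2 for Cntn6 (0.918), Ttll1 for Chl1 (0.912), Mlycd for Cntn3 (0.902), Ablim3 for Cntnap5b (0.900), Pxylp1 for Cntnap5a (0.898) and Gm12367 for Cntnap2 (0.893). Gm45904 reached 0.987 with Cntnap4, whose span it overlaps.

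Interneuron subclasses, called at a finer clustering from Lamp5, Vip, Cck, Sst and Pvalb marker sets, separated the members further. Cntn5 was at 5380 and 4920 CPM in the Control libraries of the Lamp5 subclass and at or below 2050 CPM in each other subclass. Cntnap2 was at 11600 and 10600 CPM in Vip nuclei and 8590 and 10800 CPM in Lamp5 nuclei, and between 3060 and 4580 CPM in the others. Cntnap4, the Caspr protein best known from interneurons, was at 1080 and 965 CPM in Pvalb nuclei and at 982 and 1010 CPM in the interneurons left without a subclass, which overlapped, against 48.2 and 65.4 CPM in Vip and 51.8 and 47.9 CPM in Lamp5 nuclei. Vip and Lamp5 nuclei were thus high in Cntnap2 and low in Cntnap4, and Pvalb nuclei were the highest in Cntnap5a (1220 and 1280 CPM) and Cntnap5b (416 and 484 CPM). Sst nuclei led in Cntn3 (872 and 746 CPM), and Vip nuclei in Cntn4 (1810 and 1130 CPM) and Cntn6 (781 and 771 CPM). The Lamp5 subclass held only 25 to 35 nuclei in a library.

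Excitatory clusters differed as well. The subicular or deep-layer class held 2 clusters, named here by leading genes as the Vwc2l cluster and the Dpp10 cluster. Cntn4 was at 3410 and 4560 CPM in the Vwc2l cluster of Control and at 974 and 851 CPM in the Dpp10 cluster, and Cntn6 at 1650 and 1980 CPM against 183 and 213 CPM. Within CA1, Cntn4 was at 704 and 713 CPM in the Control libraries of 1 cluster and at 139 and 122 CPM in those of another. Within dentate granule nuclei, Cntnap5a ran from 744 ± 89.5 to 1480 ± 107 CPM over 5 clusters. A small unnamed cluster led by Mir670hg and Tll1 (12 to 17 nuclei in a library) was at 3580 ± 318 CPM of Cntn3, and an unnamed cluster led by Npsr1 at 3800 ± 404 CPM of Cntn5.

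The main comparison asked whether nuclei of a class differed between Kat6a-cKO and Control. Each class was fitted with edgeR's quasi-likelihood test on UMI sums per library across all genes, with Benjamini-Hochberg adjustment over all genes tested and a threshold of 0.05. None of the 10 members passed in CA3, CA1, dentate granule, interneuron or subicular or deep-layer nuclei, nor in all nuclei summed, and 1 passed in OPC. The share of all genes that passed was also small: 0.526% in dentate granule nuclei, 0.121% in CA1, 0.0411% in CA3, 0.0274% in interneurons, 0.483% in subicular or deep-layer nuclei, 0.138% in OPC and 0.0641% in all nuclei. With an unadjusted p under 0.05 there were 4 members in dentate granule nuclei, 4 in CA1, 5 in CA3, 1 in interneurons, 4 in the subicular or deep-layer class, 2 in OPC and 5 in all nuclei, where 6.62% to 10.2% of all genes did so. DESeq2 called none in CA3, interneurons and OPC, Cntnap5c in CA1 and in dentate granule nuclei, Cntnap5a in the subicular or deep-layer class, and 3 members in all nuclei (Cntn4, Cntn6 and Cntnap5c). Of the genes to which DESeq2 gave an adjusted p, it called 0.399% in CA3, 0.153% in interneurons, 0.0052% in OPC, 0.971% in CA1, 2.57% in dentate granule, 0.557% in subicular or deep-layer and 3.47% in all nuclei. In most of these it adjusted fewer genes than edgeR tested, such as 8721 against 17304 in dentate granule nuclei. The shares of the 2 tools thus have unlike bases, and in the subicular or deep-layer class DESeq2 called 53 genes and edgeR 59.

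The members' fitted changes were mostly small. Their median log2 fold change was 0.22 in dentate granule nuclei, 0.16 in CA3, 0.07 in CA1, 0.01 in interneurons, 0.00 in the subicular or deep-layer class and 0.19 in OPC, beside medians from -0.006 to 0.004 over all genes in these classes. The genotypes' libraries did not overlap for 5 members in CA3 (37.3% of all genes), 6 in CA1 (37.8%), 5 in dentate granule nuclei (39.2%), 4 in interneurons (35.5%), 4 in the subicular or deep-layer class (38.3%) and 5 in OPC (36.6%). Such separation is thus common with 2 libraries against 2.

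**Figure D2:**
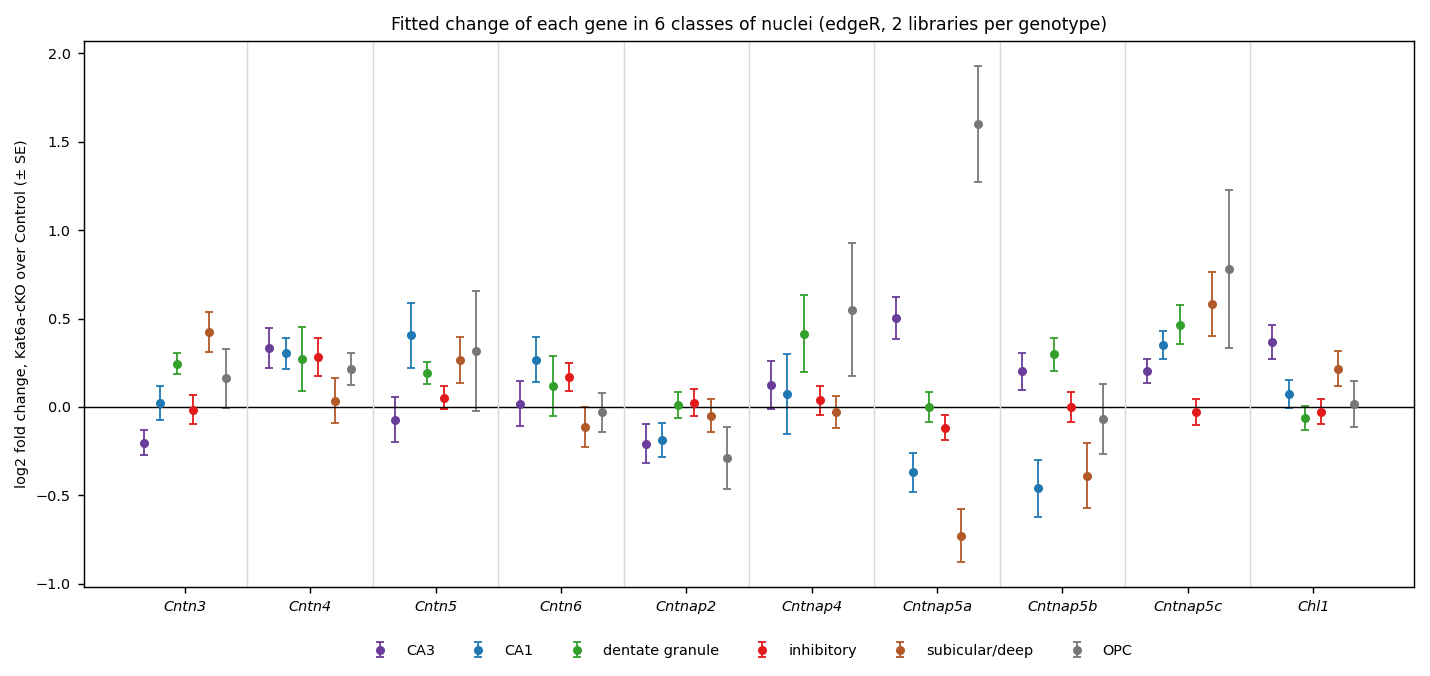
Fitted log2 fold change of each gene, Kat6a-cKO over Control, with its standard error, in 6 classes of nuclei (colours); the line at 0 is no change. Cntnap5a spans from -0.73 in the subicular or deep-layer class to 1.60 in OPC and lies on both sides of 0, while Cntn4 and Cntnap5c are at or above 0 in most classes.

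Contactins in the CA fields and dentate gyrus showed differences that did not pass the test. Cntn4 was at 456 and 438 CPM in Control CA1 nuclei and 498 and 589 CPM in Kat6a-cKO (log2 fold change 0.30 ± 0.09 SE, adjusted p = 0.355), higher in both Kat6a-cKO libraries. In all nuclei it was at 396 and 382 CPM against 515 and 528 CPM (0.44 ± 0.06, edgeR adjusted p = 0.0563), and Cntn6 at 115 and 110 against 160 and 139 CPM (0.43 ± 0.08, adjusted p = 0.124). The subicular or deep-layer class, the highest in both genes, held 242 and 209 nuclei in Control against 397 and 376 in Kat6a-cKO, and its part in these sums was not tested. Cntn3 had unlike directions by class. It was at 451 and 446 CPM in Control CA3 and 390 and 385 CPM in Kat6a-cKO (-0.20 ± 0.07), and at 209 and 214 against 246 and 251 CPM in dentate granule nuclei (0.24 ± 0.06), and its adjusted p was 0.438 and 0.139. Cntn5 in dentate granule nuclei stood at 916 and 980 against 1080 and 1060 CPM (0.19 ± 0.06, adjusted p = 0.294).

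Of the Caspr genes, Cntnap2 overlapped between genotypes in 9 of the 11 classes fitted. It was lower in both Kat6a-cKO libraries in the others, CA1 and immature dentate nuclei. In CA1 it was at 7680 and 7540 CPM against 5960 and 7220 CPM, and in CA3 at 6740 and 5840 against 4850 and 6010 CPM, so Kat6a-cKO replicate 1 was the lowest library in both. The classes come from the same libraries, so counts of classes are not separate evidence, and no such count over all genes is given. In the fitted classes where the share was read, 35.5% to 39.2% of all genes did not overlap. Cntnap5c was higher in both Kat6a-cKO libraries in 7 of the 10 classes in which it was tested, lower in 1 and overlapping in 2. In CA1 it stood at 945 and 883 against 1160 and 1140 CPM (0.35 ± 0.08, adjusted p = 0.234), in CA3 at 1410 and 1420 against 1640 and 1590 CPM (0.20 ± 0.07, adjusted p = 0.444), and in dentate granule nuclei at 25.2 and 21.3 against 32.8 and 30.9 CPM (0.47 ± 0.11, adjusted p = 0.113). Free RNA moved the same way, at 257 and 269 CPM in Control against 321 and 340 CPM in Kat6a-cKO, and its part in the classes of low level was not tested. Interneurons held 849 and 828 against 850 and 775 CPM of Cntnap5c. Cntnap4 in interneurons overlapped, at 630 and 617 against 679 and 585 CPM.

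Cntnap5a showed a difference between classes that the edgeR test of the interaction called. In CA3 nuclei it was at 42.7 and 33.8 CPM in Control against 53.2 and 54.6 CPM in Kat6a-cKO (log2 fold change 0.50 ± 0.12 SE, adjusted p = 0.216). Free RNA held 270 and 243 against 277 and 269 CPM of Cntnap5a, above each CA3 level and with the genotypes overlapping, and its part in the result was not tested. In CA1 nuclei it was at 288 and 235 against 193 and 207 CPM (-0.37 ± 0.11, adjusted p = 0.358), and in dentate granule nuclei at 1260 and 1100 against 1180 and 1160 CPM. Both Kat6a-cKO libraries were thus above Control in CA3, below it in CA1 and within its range in the dentate. The CA3 change exceeded the CA1 change by 0.88 ± 0.07 (edgeR adjusted p = 4.48e-05), and Cntnap5a was the only member called there, where 0.243% of all genes were. It passed under each of the 8 alternatives run, with adjusted p from 6.65e-22 to 0.00459. Its change in CA3 minus dentate granule nuclei was 0.49 ± 0.07 (adjusted p = 0.00193), and in CA1 minus dentate granule nuclei -0.39 ± 0.07 (adjusted p = 0.0545).

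Markers of dentate granule nuclei moved along with Cntnap5a, a gene of those nuclei. Their summed level, over 9 markers none of which was at 0, was 170 and 190 CPM in Control CA3 nuclei and 202 and 238 CPM in Kat6a-cKO. In CA1 nuclei it was 67.7 and 71.5 CPM against 55.0 and 48.3 CPM. The direction was that of Cntnap5a in each class, beside 5000 to 5230 CPM in dentate granule nuclei themselves, and its part in the result was not tested.

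In CA3 against dentate granule nuclei, 3 members differed, Cntnap5a among them, where 0.261% of all genes did, and each held under all 8 alternatives. Cntn3 had the opposite directions given above, and the difference was -0.46 ± 0.06 (adjusted p = 0.000331). Chl1 was at 109 and 92.4 CPM in Control CA3 nuclei and 131 and 128 CPM in Kat6a-cKO (0.37 ± 0.10), and at 259 and 252 against 248 and 237 CPM in dentate granule nuclei, a difference of 0.43 ± 0.07 (adjusted p = 0.00656). Free RNA held 120 to 163 CPM of Chl1, a range that the CA3 levels did not exceed, and its part was not tested. No member was called between CA1 and dentate granule nuclei, where 0.107% of all genes were. In edgeR 4 members had an unadjusted p under 0.05 there (6.96% of all genes), 7 in CA3 minus CA1 (6.36%) and 6 in CA3 minus dentate granule nuclei (6.03%); DESeq2 was not run on differences between classes. The Cntnap5b and Cntnap5c differences did not pass in any of these 3 comparisons. Each shares libraries with the others, so they are not separate evidence.

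**Figure D3:**
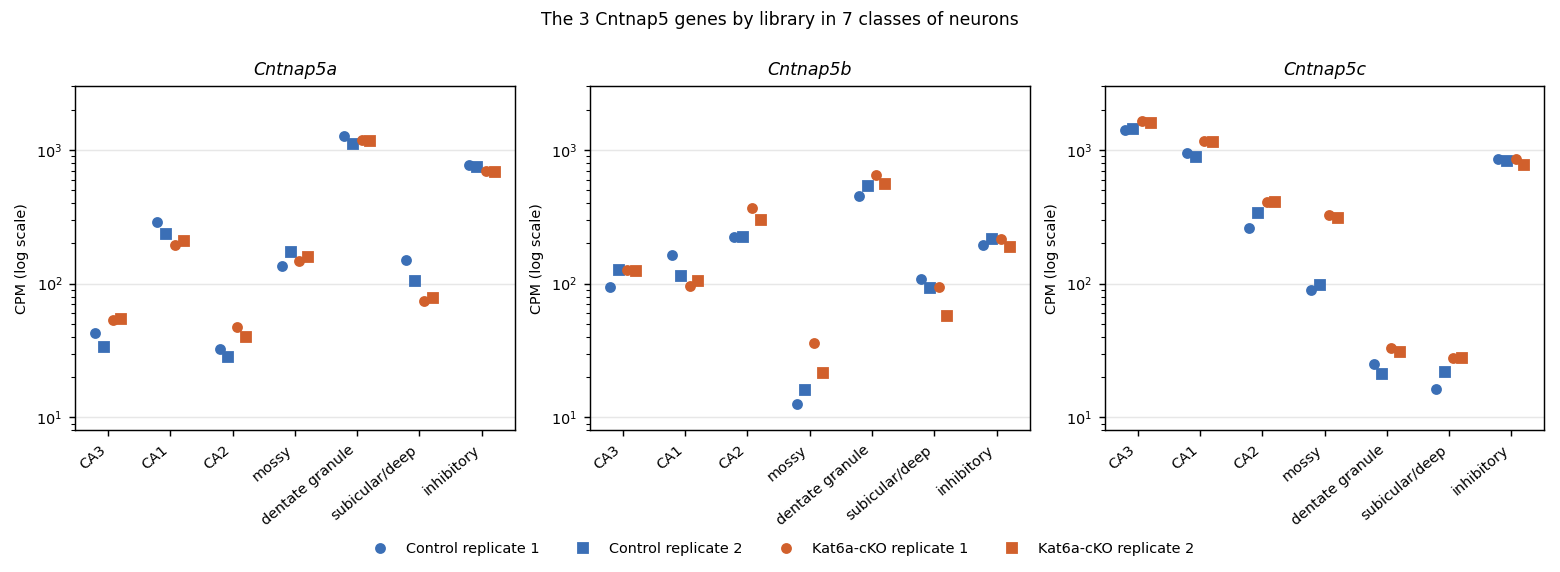
Level of the 3 Cntnap5 genes in 7 classes of neurons, in CPM (counts-per-million) of the UMIs of the class on a log scale; each point is 1 library (blue, Control; orange, Kat6a-cKO; circle, replicate 1; square, replicate 2). Cntnap5a is higher in Kat6a-cKO in CA3 and lower in CA1 and the subicular or deep-layer class, and Cntnap5c in mossy nuclei is at 327 and 308 CPM in Kat6a-cKO, above 90.1 and 98.4 CPM in Control.

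Smaller classes were fitted after the data had been seen, except Cajal-Retzius nuclei, which were too few. There Cntn4 was at 28.3 and 41.2 CPM in Control, from 9 and 8 UMIs, and at 120 and 250 CPM in Kat6a-cKO. Cntn3 (280 and 329 against 414 and 404 CPM) and Cntnap5c (261 and 278 against 474 and 351 CPM) were also higher in both Kat6a-cKO libraries. Cntnap5b (239 and 268 against 50.6 and 136 CPM) and Cntnap4 (116 and 113 against 78.2 and 48.3 CPM) were lower, and the other members overlapped. Of all genes with at least 10 UMIs over the libraries of this class, 34.0% did not overlap. In mossy nuclei Cntnap5c was at 90.1 and 98.4 CPM in Control against 327 and 308 CPM in Kat6a-cKO. It rose by 1.78 ± 0.13 on the log2 scale (edgeR adjusted p = 3.59e-05) and was the 1 member of 10 called, where 0.669% of all genes were. All 10 alternatives called it, with log2 fold changes from 1.13 to 1.87, and no other member changed as much in a neuron class that was fitted. The rise exceeded that in CA3 by 1.58 ± 0.12 (adjusted p = 2.72e-09). Cntn5, at 237 and 563 against 769 and 874 CPM, did not pass in mossy nuclei (1.05 ± 0.25, adjusted p = 0.122), but its change there exceeded that in CA3 by 1.19 ± 0.23 (adjusted p = 0.00843), a difference of 0.64 when Control replicate 1 was left out and of 1.95 when Control replicate 2 was.

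Cntn4 and Cntn3 also differed between mossy and CA3 nuclei, so 4 members did, where 0.469% of all genes did. Cntn4 was at 2040 and 1840 against 1650 and 1560 CPM in mossy nuclei, and the difference of -0.56 ± 0.11 (edgeR adjusted p = 0.0126) was lost without Control replicate 1 (adjusted p = 0.118) or Kat6a-cKO replicate 1 (0.0706). Cntn3 was at 756 and 637 against 792 and 783 CPM, and its difference of 0.43 ± 0.10 (adjusted p = 0.0332) was lost without Control replicate 2 (0.152) and without either of the Kat6a-cKO libraries (0.217 and 0.193).

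The mossy class was 30, 51, 50 and 52 nuclei in the order of the libraries, and its markers moved between groups. The 6 mossy markers summed to 522 and 546 CPM in Control against 439 and 409 CPM in Kat6a-cKO, and dentate granule markers to 181 and 212 against 265 and 274 CPM. Markers of CA3, the class with the most Cntnap5c, summed to 6380 and 6700 against 6070 and 6010 CPM, so mossy and CA3 markers were lower and dentate granule markers higher in both Kat6a-cKO libraries. Free RNA held 257 and 269 CPM of Cntnap5c in Control, above the Control mossy levels, and 321 and 340 CPM in Kat6a-cKO. The part of these markers and of free RNA in the result was not tested.

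The subicular or deep-layer class showed Cntnap5a at 150 and 104 CPM in Control against 73.6 and 77.7 CPM in Kat6a-cKO (-0.73 ± 0.15, edgeR adjusted p = 0.0527). This missed the threshold; 7 of 10 alternatives called it, and without Control replicate 1 the adjusted p was 0.284. Its clusters were fitted after that was seen. In the Vwc2l cluster 3 members were called, where 1.35% of all genes were. Cntnap5a was at 223 and 136 against 88.5 and 91.7 CPM and fell by 0.98 ± 0.16 (adjusted p = 0.000969), and Cntnap5b was at 151 and 119 against 84.3 and 55.9 CPM and fell by 0.93 ± 0.16 (adjusted p = 0.00188). Cntn3 was at 667 and 773 against 965 and 1070 CPM and rose by 0.52 ± 0.09 (adjusted p = 0.00208). All 3 passed in each of the 4 fits that left out a library, and the log2 fold change of Cntnap5a was -0.56 without Control replicate 1, the library in which it was highest, and -1.30 when the other Control library was left out.

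In the Dpp10 cluster Cntnap5b went the other way, at 37.8 and 39.0 CPM in Control against 108 and 61.0 CPM in Kat6a-cKO. It rose by 1.22 ± 0.25 on the log2 scale (edgeR adjusted p = 0.0187), the 1 member called where 0.791% of all genes were. The call was lost without Control replicate 1 (log2 fold change 1.23) or Kat6a-cKO replicate 1 (0.69). Cntnap5c had a larger fitted difference there that did not pass, at 6.68 and 5.0 CPM, from 9 and 5 UMIs, against 35.1 and 10.9 CPM (2.06 ± 0.52, edgeR adjusted p = 0.0717). With a library left out it ran from 0.89 to 2.61. Cntnap5a was at 26.7 and 36.0 against 49.9 and 43.7 CPM (0.65 ± 0.23, adjusted p = 0.284). The change in the Vwc2l cluster minus that in the Dpp10 cluster was -2.12 ± 0.21 for Cntnap5b (adjusted p = 0.000525) and -1.64 ± 0.28 for Cntnap5a (adjusted p = 0.0175), the 2 members called where 0.307% of all genes were. Without Kat6a-cKO replicate 1 neither passed, with differences of -1.95 for Cntnap5b and -1.47 for Cntnap5a. Without Control replicate 1 that of Cntnap5a was -1.04. Markers of the class summed to between 12800 and 13600 CPM in the Vwc2l cluster and between 9220 and 9780 CPM in the Dpp10 cluster, and the genotypes overlapped in both. Dentate granule markers also overlapped in the Vwc2l cluster, at 128 and 64.2 CPM in Control against 119 and 120 CPM in Kat6a-cKO. Markers of immature dentate nuclei, the class highest in Cntnap5a and Cntnap5b, did not overlap there (170 and 189 against 212 and 202 CPM), nor did those of CA3 (511 and 498 against 490 and 432 CPM), CA2 (102 and 123 against 90.8 and 95.9 CPM) and astrocytes (16.7 and 20.6 against 33.8 and 24.6 CPM). Free RNA held 160 to 234 CPM of Cntnap5b, above its level in every library of both clusters. The part of these markers and of free RNA in the results was not tested. Nuclei of the Vwc2l cluster numbered 140 and 133 in Control against 242 and 261 in Kat6a-cKO, and those of the Dpp10 cluster 102 and 76 against 155 and 115, and whether the same kinds of nuclei were sampled was not tested.

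**Figure D4:**
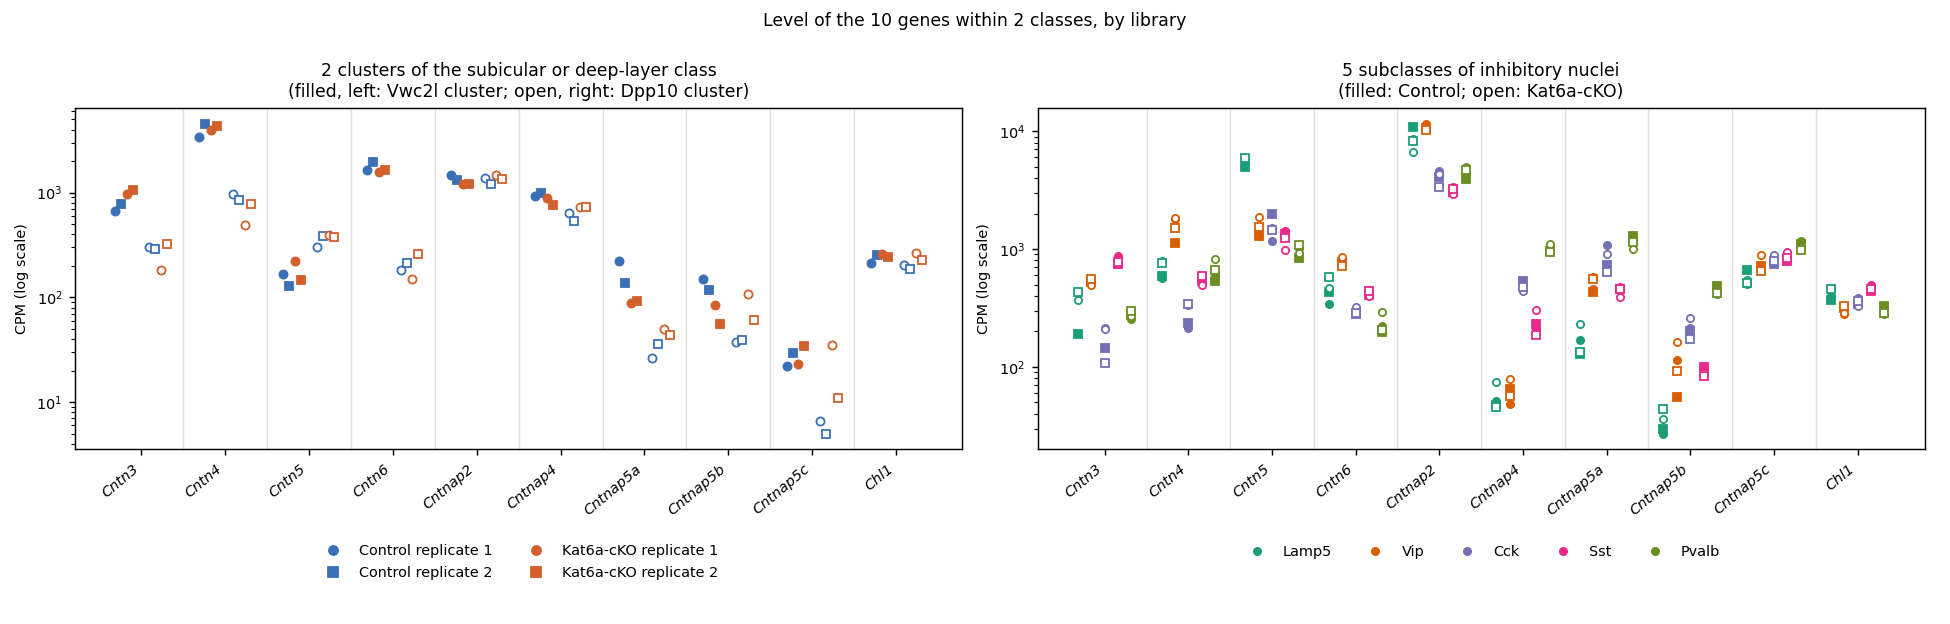
Level of the 10 genes within classes, in CPM (counts-per-million) of the UMIs on a log scale, each point 1 library (circle, replicate 1; square, replicate 2). Left, the Vwc2l (filled) and Dpp10 (open) clusters by genotype, where Cntnap5b is lower in Kat6a-cKO in the first and higher in the second; right, 5 interneuron subclasses, where Cntn5 is highest in Lamp5 nuclei and Cntnap4 in Pvalb nuclei.

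Of the 8 CA1 and dentate granule clusters fitted in the same way, 1 had called members. Over the other 7, edgeR called no member, 2 to 6 members in each had an unadjusted p under 0.05 (6.98% to 9.27% of all genes did), and 0.301%, 0.257%, 0.122% and 0.0% of all genes were called in the dentate and 0.504%, 0.0466% and 0.0684% in the CA1 clusters. In the dentate cluster led by Gm6999, Cntnap5c was at 23.8 and 22.6 against 33.3 and 34.9 CPM (0.57 ± 0.12) and Cntn4 at 62.9 and 86.2 against 112 and 105 CPM (0.56 ± 0.12), both with an edgeR adjusted p of 0.047, where 0.738% of all genes were called. Each of these was lost in 1 of the 4 fits that left out a library. Both genes are at lower CPM here than in free RNA. That of Cntn4 was also higher in Kat6a-cKO, at 173 and 201 CPM in Control against 257 and 236 CPM. The part of free RNA in these results and in the Cntn4 values of CA3, CA2 and Cajal-Retzius nuclei was not tested.

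Glial classes had few UMIs of most members. In OPC, Cntnap5a was at 24.9 and 13.7 CPM in Control, which rests on 28 and 11 UMIs, and at 78.5 and 36.0 CPM in Kat6a-cKO. It rose by 1.60 ± 0.33 on the log2 scale (edgeR adjusted p = 0.0259), but 4 of the 10 alternatives lost the call: the fit without Kat6a-cKO replicate 1 (0.85, adjusted p = 0.675), that without Control replicate 2 (adjusted p = 0.0532), DESeq2 (adjusted p = 0.999) and Leiden resolution 2 (0.86, adjusted p = 0.372). At that resolution the class held 168, 120, 136 and 90 nuclei in the order of the libraries, in place of 175, 124, 148 and 94. Free RNA held 243 to 277 CPM of Cntnap5a. Dentate granule markers summed to 1930 to 2000 CPM in Control OPC and 2060 to 2080 CPM in Kat6a-cKO, and their part in the result was not tested.

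In astrocytes Cntnap5c was at 120 and 37.1 CPM in Control against 7.91 and 6.66 CPM in Kat6a-cKO, and fell by 3.44 ± 0.62 on the log2 scale (edgeR adjusted p = 0.0137), the 1 of 8 members tested that was called, where 0.857% of all genes were. Of the Control replicate 1 UMIs, 98 came from a small cluster of the class with 24 nuclei there and 3 to 7 in each other library. Its leading genes include Slc1a3 and Gli3, which mark astrocytes, the ependymal markers Tmem212 and Dnah12, and the cilia genes Spag16 and Cfap299. Without that cluster, an alternative added after the data had been seen, Cntnap5c was at 25.9 and 41.7 against 8.27 and 7.03 CPM and did not pass (-1.96, edgeR adjusted p = 0.503), and 0.0312% of all genes were called. Without Control replicate 1 the log2 fold change was -2.17 (edgeR adjusted p = 0.415). With a minimum of 2500 UMIs, which gave 290 to 608 astrocyte nuclei in a library in place of 52 to 156, it was -1.55 (adjusted p = 0.00536). Ependymal or choroid markers also differed in this class, summing to 119 and 373 CPM in Control against 4.74 and 6.66 CPM in Kat6a-cKO. Without the small cluster they summed to 2.47 and 38.8 against 4.96 and 7.03 CPM, where the genotypes overlapped. Free RNA held 257 to 340 CPM of Cntnap5c, above its level in each astrocyte library, and its part was not tested.

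CA2 pyramidal, immature dentate and oligodendrocyte nuclei had no member called by edgeR, where 0.0285%, 0.268% and 0.0% of all genes were. Unadjusted p-values under 0.05 were found for 5 members, 5 members and 1 of 7 members tested, where 6.64%, 9.05% and 5.11% of all genes had them. DESeq2 called Cntnap5b in CA2 (1.03% of the 1947 genes with a DESeq2 adjusted p, where edgeR tested 10519). It called no member in immature dentate nuclei (0.00972% of 20582 genes) or oligodendrocytes (0.0% of 18356). In CA2 the genotypes' libraries did not overlap for 4 of the 10 members, where 36.8% of all genes did not, and the median of the fitted log2 fold changes was 0.48, beside -0.002 over all genes. The largest, 0.90 for Cntn4 and 0.87 for Cntn3, were 0.10 and 0.01 without Kat6a-cKO replicate 1. Cntnap5b was at 225 CPM in both Control libraries and 366 and 300 CPM in Kat6a-cKO (0.57 ± 0.10, adjusted p = 0.158; 6 of 10 alternatives called it). In immature dentate nuclei Chl1 was at 499 and 375 against 318 and 299 CPM (-0.46 ± 0.14, adjusted p = 0.213). In oligodendrocytes Cntnap5a was at 39.7 and 24.1 against 16.7 and 12.2 CPM (-1.07 ± 0.45, edgeR adjusted p = 0.968). Whether the same kinds of nuclei were sampled in both genotypes in these classes was not tested.

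Further fitted differences of members had an unadjusted p under 0.05 or were among the 2 largest of a class, and none passed, with edgeR adjusted p from 0.0914 to 0.994. For Cntn3 the log2 fold change was 0.42 ± 0.11 in subicular or deep-layer, 0.67 ± 0.21 in immature dentate (-0.18 at Leiden resolution 2) and 0.17 ± 0.06 in all nuclei. For Cntn4 it was 0.33 ± 0.11 in CA3, 0.28 ± 0.11 in interneurons, 0.21 ± 0.09 in OPC, 0.42 ± 0.18 in immature dentate and -0.24 ± 0.10 in mossy nuclei, so the gene had both directions. For Cntn5 it was 0.41 ± 0.18 in CA1 (0.06 to 0.69 over the alternatives) and 0.31 ± 0.11 in immature dentate nuclei. In astrocytes it was -1.13 ± 0.40 for Cntn5 (-1.47 to -0.24 over the alternatives), and in interneurons 0.17 ± 0.08 for Cntn6.

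Among the Caspr genes not yet given, Cntnap2 had a log2 fold change of -0.88 ± 0.36 in astrocytes and -0.44 ± 0.38 in oligodendrocytes, and Cntnap4 one of -2.35 ± 0.63 in astrocytes and 0.30 ± 0.10 in all nuclei. Cntnap5a was at -1.38 ± 0.62 in astrocytes and 0.54 ± 0.17 in CA2 (0.08 to 0.65 over the alternatives). Cntnap5b was at -0.46 ± 0.16 in CA1, 0.30 ± 0.09 in dentate granule, 0.32 ± 0.13 in immature dentate and 1.03 ± 0.34 in mossy nuclei. Cntnap5c was at 0.58 ± 0.18 in subicular or deep-layer nuclei, 0.78 ± 0.45 in OPC, 0.43 ± 0.11 in CA2, 0.49 ± 0.31 in immature dentate and 0.35 ± 0.06 in all nuclei. The L1 family gene Chl1 was at 0.22 ± 0.10 in subicular or deep-layer and 0.36 ± 0.13 in mossy nuclei. Some of these fold changes rest on low levels. Control nuclei held 16.3 and 21.7 CPM of Cntnap5c in the subicular or deep-layer class and 10.7 and 11.2 CPM in OPC. Free RNA held 257 to 340 CPM of it. Control mossy nuclei held 12.6 and 15.9 CPM of Cntnap5b, against 160 to 234 CPM in free RNA. The part of free RNA was not tested. Of the astrocyte fold changes, 2 turned without Control replicate 1, Cntnap5a to 0.83 and Cntnap2 to 0.17. The all-nuclei sums of Cntn3, Cntnap4 and Cntnap5c pool classes of unlike shares. The subicular or deep-layer class, the highest named class in Cntnap4, held 3.03% and 2.71% of Control nuclei against 4.87% and 4.94% in Kat6a-cKO. Dentate granule nuclei, the lowest in Cntnap4, held 42.5% and 41.0% against 36.5% and 35.4%. The part of these shares was not tested.

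Genes that work with the members were read from fixed lists. Of 7 other contactin, Caspr and L1 family genes (among them Cntn1, Cntn2, Cntnap1, L1cam, Nfasc and Nrcam), none passed by edgeR in the 11 classes, all nuclei or the differences between CA3, CA1 and dentate granule nuclei, with 2 at most at an unadjusted p under 0.05 in a comparison. Not all were tested in each class. The 2 were of 3 tested in astrocytes (9.25% of all genes) and of 7 in the subicular or deep-layer class (9.5%). DESeq2 called 1 family gene, Cntnap3, in the subicular or deep-layer class. Of 36 partner genes, such as potassium channels, receptor phosphatases and semaphorin receptors, Nrp1, a receptor that pairs with L1 family proteins, was the only one called by edgeR in these comparisons, and DESeq2 called it too. Nrp1 was at 144 and 152 CPM in Control mossy nuclei and 250 and 244 CPM in Kat6a-cKO and rose by 0.78 ± 0.13 (adjusted p = 0.0116). DESeq2 further called Ptprz1 and Tnr in CA1, Nlgn1 and Ptprg in the subicular or deep-layer class, Kcna1 and Mag in all nuclei and Tnr in CA2. The juxtaparanodal channel gene Kcna2 was at 27.1 and 31.9 against 16.5 and 18.4 CPM in subicular or deep-layer nuclei (-0.72 ± 0.17, adjusted p = 0.100), and Ptprg, a receptor phosphatase that binds contactins, at 428 and 425 against 611 and 533 CPM (0.45 ± 0.10, adjusted p = 0.0628). In CA1 nuclei the matrix protein gene Tnr was at 508 and 603 against 800 and 723 CPM (0.48 ± 0.09, adjusted p = 0.151). The medians of the partner list lay between -0.03 and 0.07 in every comparison, beside medians of -0.022 to 0.01 over all genes.

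The other genes of both lists that were among the 3 largest of a class did not pass, and log2 fold changes of most of them follow. The family genes lay between -0.47 for Cntn2 in mossy nuclei and 0.60 for L1cam in OPC and for Cntn1 in astrocytes, with edgeR adjusted p from 0.194 to 1.0. Of the potassium channel genes, Kcna1 was at -0.25 in CA3, -0.38 in dentate granule nuclei, -0.31 in interneurons, -0.52 in OPC and -0.38 in all nuclei. Kcna2 was at -0.32 in dentate granule nuclei, -0.24 in interneurons, -0.69 in immature dentate and -0.24 in all nuclei, and Kcna4 at 0.65 in CA2 and -0.46 in immature dentate nuclei. The fitted values of Kcna1 and Kcna2 given here were all below 0, and that of Kcna4 had both signs. Aplp1, a relative of amyloid precursor protein, was at -0.28 in CA3, -0.28 in dentate granule, -0.45 in subicular or deep-layer, -0.46 in OPC and -0.34 in all nuclei. Tnr was at 0.25 in CA3, at 0.55 in CA2 (edgeR adjusted p = 0.0633) and at 2.27 in oligodendrocytes, where Kat6a-cKO replicate 1 alone was high, at 192 CPM. The phosphatase gene Ptprz1 was at 0.47 in CA1 and 0.43 in CA2, Sema3a at 0.37 in CA1 and -0.41 in immature dentate nuclei, Nrp1 at 0.78 in OPC and Epb41l2 at 0.16 in interneurons. Among the glia, Epb41l3 was at -1.95, Ank3 at -1.20 and Dlg2 at -0.82 in astrocytes, and Lgi1 at -0.96 in oligodendrocytes.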

How the data were processed

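The authors deposited unfiltered count matrices of UMIs per gene and barcode from 10x Genomics single-nucleus libraries; the submitters' processing notes name mm10 and Seurat 4.0.1, and the aligner and its settings are not given in the sources used here. Barcodes with at least 5000 UMIs were kept, doublets called by Scrublet were left out, and nuclei were clustered (scanpy 1.11.5, Leiden resolution 1) without the members and other listed genes. Counts were summed per library and class and fitted with edgeR 4.0.16 (TMM, filterByExpr, quasi-likelihood test, Benjamini-Hochberg adjustment over all genes tested); nuclei are not replicates. Differences between classes are interaction terms with library as a block. The test was also run on simulated counts, and the outcome is not reported here. Alternatives were DESeq2 1.42.0, a replicate block, no filter, each library left out, 2500 UMIs, Leiden resolution 2 and doublets kept. The members and gene lists were chosen with earlier results of these data known. Smaller classes, clusters, mossy minus CA3 and the comparison of the 2 subicular clusters were added after seeing the data, as was the UMI limit that keeps glial clusters with over 50% of their library's median UMIs unnamed. A member's fold change is named where it passes the threshold, has an unadjusted p under 0.05, or is among the 2 largest in its class with at least 10 CPM; of other lists, the genes that pass, else the 3 largest, of which 1 value is not reported here. Free RNA was read from barcodes of few UMIs.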

Additional observations from a re-analysis of the deposited data

Results flagged for a closer look

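Between the classes fitted, the genotype effect on the log2 scale differed by the edgeR test of the difference for Cntnap5a in CA3 minus CA1 (0.88), for Cntnap5a (0.49), Cntn3 (-0.46) and Chl1 (0.43) in CA3 minus dentate granule nuclei, and for Cntnap5c (1.58), Cntn5 (1.19), Cntn3 (0.43) and Cntn4 (-0.56) in mossy minus CA3 nuclei. It also differed for Cntnap5b (-2.12) and Cntnap5a (-1.64) in the Vwc2l minus the Dpp10 cluster of the subicular or deep-layer class.

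In other pairs among CA3, CA1, dentate granule, interneuron, subicular or deep-layer and OPC nuclei, both Kat6a-cKO libraries were above both Control libraries in 1 class and below them in the other, and the difference was not tested. For Cntn3 these were CA3 minus the subicular or deep-layer class (-0.63) and CA3 minus OPC (-0.36). For Cntnap5a they were CA3 minus interneurons (0.62), CA3 minus the subicular or deep-layer class (1.23), CA1 minus OPC (-1.97), interneurons minus OPC (-1.72) and the subicular or deep-layer class minus OPC (-2.33). For Chl1 it was dentate granule nuclei minus the subicular or deep-layer class (-0.28). The OPC level of Cntnap5a rests on 28 and 11 UMIs in the Control libraries. Pairs with the smaller classes, which were fitted after the data had been seen, are not listed and were not tested apart from mossy minus CA3; Chl1, for example, was lower in immature dentate and higher in CA3, CA2, mossy and subicular or deep-layer nuclei, without overlap.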

How the results depend on the processing

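With 2 libraries a group, how many of the 10 members passed moved with the fit. The tests of single classes called no member in CA3, CA1, dentate granule, interneuron, subicular or deep-layer, CA2, immature dentate, oligodendrocyte or all nuclei, and 1 each in OPC, mossy and astrocyte nuclei. Without a filter on low counts they called 5 in CA3, 5 in CA1, 3 in dentate granule, 1 in interneurons, 2 in subicular or deep-layer, 4 in CA2 and 4 in astrocyte nuclei. Calls over all genes rose as well, to 1.19% in CA3, 1.8% in CA1, 2.14% in dentate granule, 0.533% in interneurons, 1.25% in subicular or deep-layer, 0.351% in CA2 and 1.06% in astrocyte nuclei. The same change gave 4 in CA3 minus CA1 (1 with the filter), 5 in CA3 minus dentate granule (3), 4 in CA1 minus dentate granule (0) and 6 in the Vwc2l minus the Dpp10 cluster (2), where 0.421% to 0.974% of all genes were called. DESeq2 called 1 each in CA1, dentate granule, subicular or deep-layer and CA2 nuclei, 3 in all nuclei and 0 in OPC. Of the genes with a DESeq2 adjusted p it called 0.971%, 2.57%, 0.557%, 1.03%, 3.47% and 0.0052% there, in that order. At 2500 UMIs there were 1 in subicular or deep-layer (0.583% of all genes) and 2 in astrocyte nuclei (1.11%), with doublets kept 2 in OPC (0.103%) and 2 in mossy nuclei (0.864%), and at Leiden resolution 2 there were 0 in OPC (0.338%).

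With a replicate block the count was 3 in CA3, 2 in dentate granule, 2 in subicular or deep-layer, 4 in CA2, 1 in immature dentate and 4 in all nuclei, where 0.938%, 1.99%, 2.14%, 0.523%, 1.72% and 3.5% of all genes were called. The labels do not say that a replicate number marks a shared animal or day. Over genes, the departures of same-numbered libraries from their group means had a correlation of 0 to 0.148. Class shares, however, followed the number in most classes. Astrocytes held 1.95% and 0.816% of nuclei in Control replicates 1 and 2, and 1.3% and 0.683% in Kat6a-cKO. Shares of interneurons, subicular or deep-layer and Cajal-Retzius nuclei did not follow it. The numbers were not taken as a pairing in the main fits, and what they mark was not tested.

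With a library left out, the lone sample is assumed to vary like the other group. The count then ran from 0 to 3 in CA3, CA1, the subicular or deep-layer class, CA1 minus dentate granule and the Dpp10 cluster, 0 to 2 in dentate granule, immature dentate and all nuclei, 0 to 1 in interneurons and OPC, 0 to 4 in CA2, and 0 to 5 in astrocytes and the Vwc2l minus the Dpp10 cluster. It was 1 to 3 in mossy nuclei, 2 to 3 in CA3 minus CA1, 2 to 4 in mossy minus CA3, and 1 to 4 in the Gm6999 dentate cluster. The share of all genes called moved too, from 0.13% to 2.06% in CA3, 0.167% to 2.24% in CA1, 0.387% to 2.35% in dentate granule, 0.183% to 0.604% in interneurons, 0.835% to 2.15% in subicular or deep-layer, 0.221% to 0.386% in OPC and 0.00891% to 1.21% in all nuclei. It was 0.0721% to 1.59% in mossy, 0.206% to 0.611% in CA2, 0.226% to 0.948% in immature dentate and 1.26% to 1.8% in astrocyte nuclei, 0.118% to 0.806% in CA3 minus CA1, 0.136% to 0.698% in CA1 minus dentate granule and 0.426% to 0.937% in mossy minus CA3. In the clusters it was 1.25% to 2.25% in the Gm6999 dentate cluster, 0.612% to 2.79% in the Dpp10 cluster and 0.00895% to 1.39% in the Vwc2l minus the Dpp10 cluster. Without the small cluster led by Slc1a3 and Adgrv1, 0 members were called in astrocytes (0.0312% of all genes). The changes refitted were named for a low p or a large size, and the refits share libraries, which favours a kept direction. Directions reversed in 11 of 783 refits of these changes, none of them of a called member: Cntnap2 in CA3 minus dentate granule (0.05 without Control replicate 1, and -0.44 to 0.05 over the libraries left out) and Cntn5 there (0.05 with doublets kept), Cntn3 in immature dentate (-0.18 at Leiden resolution 2), Cntnap5a in astrocytes (0.83 without Control replicate 1, range -2.05 to 0.83, and 0.66 with doublets kept) and oligodendrocytes (0.02 at 2500 UMIs), Cntnap2 in astrocytes (0.17 without Control replicate 1, range -1.35 to 0.17) and oligodendrocytes (0.38 without Control replicate 2, range -1.03 to 0.38, 0.10 at 2500 UMIs, 0.55 with doublets kept), and Cntn5 in the Vwc2l cluster (-0.01 without Kat6a-cKO replicate 1, range -0.01 to 0.63). The cause was not tested.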
